A study of Mus musculus with 21 samples.

Results

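10 genes of the Bcl2 family were followed in T cells responding to peptide. They were the survival genes Bcl2, Bcl2l1, Mcl1, Bcl2a1b and Bcl2a1d, and the death genes Bcl2l11, Bbc3, Pmaip1, Bax and Bak1. The genes were chosen by name, and all 10 were found among the 47643 genes of the count table. The cells were splenic CD4+ T cells of Tg4 Tiger Nr4a3-Tocky mice. Tg4 is a transgenic T cell receptor (TCR) that recognizes a peptide of myelin basic protein (MBP), Tiger is an Il10-GFP reporter, and Nr4a3-Tocky drives a Timer protein that matures from blue to red after TCR signaling starts. The 4Y MBP peptide was given subcutaneously without adjuvant, at 0.8 µg or at 80 µg per mouse, and cells were sorted after 4 h, 12 h or 24 h. Control mice carried the same alleles and were untreated, and the Timer gate of their cells was not given in the labels. Each of the 7 groups held 3 libraries, 21 in all, from separate mice per the study's methods. Age was not given in the sources used here. The sort gate changed with time: Blue+Red- cells were taken at 4 h, Blue+Red+ cells at 12 h and Blue-Red+ cells at 24 h, so time and gate cannot be told apart. The comparison asked how the amount of antigen changed the response of the cells that had answered it.

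The Bcl2 family controls the mitochondrial route to cell death. Bcl2, Bcl2l1 (Bcl-xL), Mcl1 and the Bcl2a1 proteins (A1) hold the effectors Bax and Bak1 in check. Bcl2l11 (Bim), Bbc3 (Puma) and Pmaip1 (Noxa) bind the survival proteins or the effectors and free the latter, which then open the outer mitochondrial membrane so that cytochrome c escapes. In resting T cells, Bcl2 kept up by cytokines such as interleukin-7 opposes Bim, whereas activated T cells make Bcl-xL and A1. Much of this control acts on the proteins, and these data are of mRNA.

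Promoter windows from RefSeq (GRCm38.p6), 250 bases before to 50 bases after an annotated start, were read for 9 of the 10 genes to set the letters near the start beside the expression data. 4 motifs were searched on both strands with letters chosen after the windows had been seen. They were the forkhead letters GTAAACA, the Egr letters GCGTGGGCG, the E-box CACGTG and the AP-1 letters TGANTCA. Of 32851 windows, 3.65% held the forkhead letters, 0.612% the Egr letters, 7.15% the E-box and 7.81% the AP-1 letters. None of these motifs contains another. The forkhead letters stood in windows of Bcl2l11 and Bbc3, whose counts moved in opposite directions at 4 h, and the stretches around them are shown with the match in capitals, read on the strand of the gene.
Bcl2l11, chr2:128125799-128125828, plus strand: caagacactaggGTAAACAcgccggggtgg
Bbc3, chr7:16310082-16310111, plus strand: gtctggcgggttTGTTTACaaacaatgggg
Both stretches lie upstream of the start used for their window, by 227 bases for Bcl2l11 and by 167 bases for Bbc3 (first base of the match), and neither touches an annotated exon of its gene (GENCODE vM21).

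The Egr letters stood in the windows of Bcl2a1b and Bcl2a1d and in that of their copy Bcl2a1c, each within the same 30 bases. The stretches of both genes and of a further copy, Bcl2a1a, show how alike the copies are.
Bcl2a1b, chr9:89199180-89199209, plus strand: ctttcacagacCGCCCACGCacataagtga
Bcl2a1d, chr9:88731870-88731899, minus strand: ctttcacagacCGCCCACGCacataagtga
Bcl2a1a, chr9:88956871-88956900, plus strand: ctttcacagaccgcccatgcacataagtga
The stretch of Bcl2a1a differed from that of Bcl2a1b by 1 substitution, C18T, counted from the first base shown, which took it out of the search. The stretch of Bcl2a1d lies inside an annotated exon of that gene, and the other copies' stretches reach at most the first exonic base. Bcl2a1b also held the AP-1 letters, 164 bases before its start, in the stretch below, and the windows of Bcl2a1d and Bcl2a1a held them too, 114 and 120 bases before the start.
Bcl2a1b, chr9:89199104-89199163, plus strand: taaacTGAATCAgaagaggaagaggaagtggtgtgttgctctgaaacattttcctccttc
Bax held the E-box letters 9 bases before its start, as below, and once after it, and a window of Bbc3 held them 64 bases before its start.
Bax, chr7:45466890-45466919, minus strand: agcgatgatgatCACGTGactagtcctgcg
A match is a description of the letters and not a binding site.

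The libraries held 2352800 to 6244279 counts. A single transcript, Gm42418, took 17.0% to 27.8% of them. All 9 T cell markers (Cd3d, Cd3e, Cd3g, Cd4, Trac, Trbc1, Trbc2, Cd5 and Cd2) were detected, with a summed level of 3514 to 3762 CPM (counts scaled to the same total in each library) in control, 2023 to 2242 at 4 h, 1589 to 1964 at 12 h and 3069 to 3576 at 24 h. All 6 B cell markers were also detected, at a summed 40.4 to 96.6 CPM in control and 2.32 to 49.7 CPM in the immunized groups, so B cell reads were few and moved with the groups. The other marker lists were detected in full, with summed levels over all libraries of 13.1 to 51.3 CPM for CD8 T cells, 9.24 to 59.2 for plasma cells, 0.462 to 31.2 for myeloid cells, 5.31 to 211 for red cells, and at most 4.49 for natural killer cells, 2.66 for dendritic cells and 1.06 for platelets. The part of any of these cells in the results was not tested. All 10 genes passed the filter of 10 counts in all, but 2 were near the limit of detection. Bcl2a1d had 84 counts over all libraries and was at 0 in 5 of them, and Pmaip1 had 113 counts and was also at 0 in 5.

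Bcl2 (chr1:106538178-106714274, minus strand, GRCm38) was highest in untreated cells and fell in every immunized group. Values are normalized read counts, the deposited counts divided by the size factor of each library. Bcl2 was at 1273, 1621 and 1258 in the 3 control libraries (mean 1384 ± 205, SD). At 4 h it was at 111, 155 and 99.3 after 0.8 µg, and at 303, 199 and 264 after 80 µg. No library of either dose came near the controls, and the 2 doses did not overlap: the level was 8.81% of control after 0.8 µg and 18.4% after 80 µg. In bulk libraries, fewer cells of a type and less RNA per cell cannot be told apart. At 12 h it was at 237, 251 and 249 after 0.8 µg and at 420, 332 and 414 after 80 µg. At 24 h it was at 359, 402 and 644 after 0.8 µg and at 431, 573 and 456 after 80 µg, where the doses overlapped. The level thus stood at 33.9% and 35.2% of control at 24 h. The log2 fold change against control (DESeq2, shrunken) was -3.48 ± 0.20 (SE) and -2.42 ± 0.19 at 4 h, -2.47 ± 0.19 and -1.82 ± 0.19 at 12 h, and -1.55 ± 0.19 and -1.49 ± 0.19 at 24 h, the lower dose first. All 6 adjusted p-values lay between 1.65e-66 and 1.96e-14. In the order of the 7 group means, the pairs 80 µg 24 h and 0.8 µg 24 h, 0.8 µg 24 h and 80 µg 12 h, and 80 µg 4 h and 0.8 µg 12 h did not differ beyond their spread. An antisense gene, D630008O14Rik, shares 558 exonic bases with Bcl2, and whether counting used strand was not given in the sources used here.

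**Figure D1:**
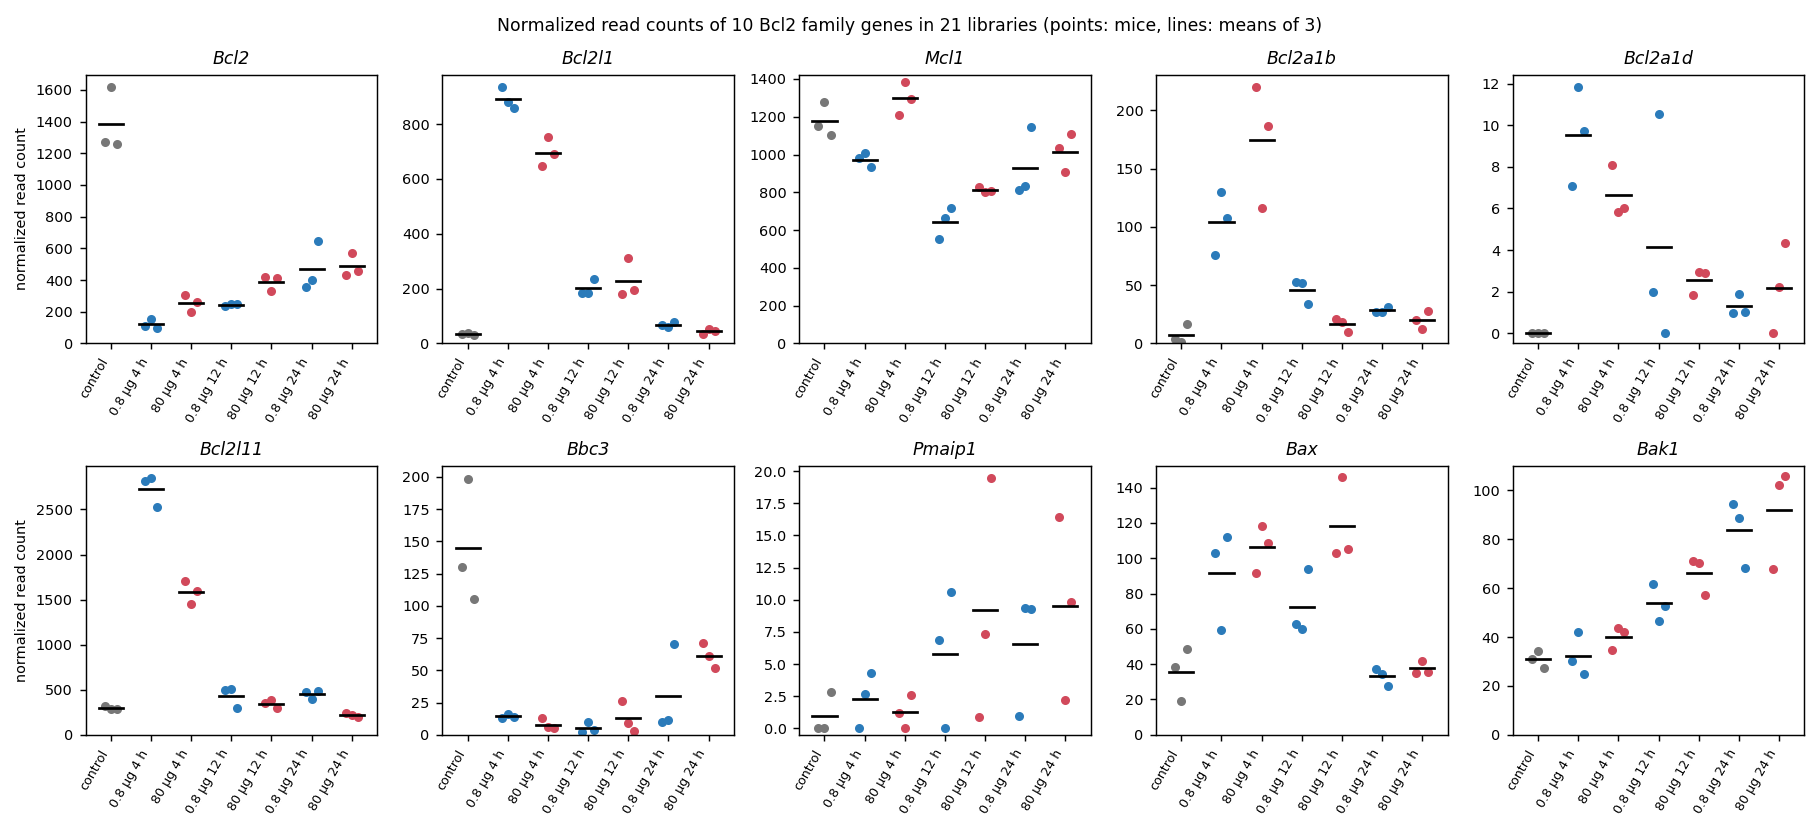
Normalized read count of each gene (y axis, own scale per panel, linear) in the 7 groups (x axis), where each point is a library from 1 mouse (grey control, blue 0.8 µg, red 80 µg) and each line the mean of 3. Bcl2 and Bbc3 were highest in control, Bcl2l1, Bcl2a1b and Bcl2l11 were highest at 4 h, and Bak1 had its highest mean, 92.1, at 24 h.

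Bcl2l1 (chr2:152780668-152831728, minus strand), which encodes Bcl-xL, moved the other way. It was at 34.0, 37.5 and 29.98 in the control libraries. It was at 936, 880 and 858 at 4 h after 0.8 µg, and at 646, 753 and 690 after 80 µg. The means were 26.3-fold and 20.6-fold that of control, and all 3 libraries of the lower dose were above all 3 of the higher dose. At 12 h the libraries were at 185, 186 and 235 after 0.8 µg and at 179, 311 and 195 after 80 µg, and the doses overlapped. At 24 h they were at 69.1, 59.7 and 78.5 after 0.8 µg and at 36.2, 52.99 and 43.8 after 80 µg, where the higher dose overlapped the controls. Against control, its log2 fold change was 4.65 ± 0.22 and 4.30 ± 0.22 at 4 h, and 2.52 ± 0.22 and 2.71 ± 0.22 at 12 h. The 24 h value was 0.99 ± 0.24 after 0.8 µg (adjusted p = 0.000155), just under the threshold of 1, and 0.38 ± 0.24 after 80 µg (adjusted p = 0.205). Leaving out control replicate 2 or replicate 2 of 0.8 µg at 24 h took the former past the threshold, at 1.05 and 1.09, as did edgeR (1.01), thinned counts (1.05) and unshrunken fold changes (1.01). The order of the means ran by time, 4 h over 12 h over 24 h over control, and the 12 h doses did not differ beyond their spread.

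Mcl1 (chr3:95658788-95663176, plus strand), whose protein is short-lived and which T cells need at every stage, stayed within the fold threshold in all 13 comparisons. Its libraries were at 1150, 1278 and 1104 in control, at 982, 1006 and 932 at 4 h after 0.8 µg and at 1212, 1382 and 1296 at 4 h after 80 µg. The 3 libraries of the higher dose were all above those of the lower dose at this time. The lowest group was 0.8 µg at 12 h, with 551, 666 and 717, followed by 80 µg at 12 h with 829, 803 and 807. At 24 h the libraries were at 814, 833 and 1144 after 0.8 µg and at 1032, 905 and 1107 after 80 µg, and both doses reached into the control range. Against control, the lowest adjusted p-values were those at 12 h, where the log2 fold change was -0.87 ± 0.12 after 0.8 µg (adjusted p = 3.35e-12) and -0.53 ± 0.12 after 80 µg (adjusted p = 2.42e-05).

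The A1 genes are copies on chromosome 9, Bcl2a1d at chr9:88723285-88731914, Bcl2a1a at chr9:88956900-88962419 and Bcl2a1b at chr9:89199209-89207827 (GRCm38, GENCODE vM21). Over the last 300 bases of their transcripts, where the 3′ reads of this assay fall, Bcl2a1b was 98.01% identical to Bcl2a1d and 97.35% identical to Bcl2a1a, and Bcl2a1a and Bcl2a1d were 99.33% identical. How reads that fit several copies were treated was not given in the sources used here, so the split between the copies is uncertain, and Bcl2a1b further shares 401 exonic bases with the gene Gm29094 on the same strand. Bcl2a1b was at 4.12, 1.01 and 17.1 in control. It was at 75.7, 130 and 108 at 4 h after 0.8 µg and at 220, 116 and 187 after 80 µg, and both doses were above every control library. At 12 h it was at 52.9, 51.9 and 34.0 after 0.8 µg but at 21.01, 18.3 and 9.72 after 80 µg, where it overlapped the controls. At 24 h it was at 27.3, 27.0 and 31.0 after 0.8 µg and at 19.7, 12.5 and 27.7 after 80 µg. The higher dose thus had the highest mean at 4 h and the lower mean at 12 h and 24 h. The doses overlapped at 4 h and at 24 h, and only the 12 h difference between them was called. Against control, its log2 fold change was 3.72 ± 0.44 and 4.44 ± 0.44 at 4 h, 2.59 ± 0.45 and 1.15 ± 0.47 at 12 h, and 1.90 ± 0.46 and 1.43 ± 0.46 at 24 h. These sizes depended on control replicate 3, the library at 17.1, without which they were 4.67 and 5.39 at 4 h, 3.53 and 2.08 at 12 h, and 2.84 and 2.37 at 24 h.

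Bcl2a1d was at 0 in all 3 control libraries, which allows up to 3.47 normalized reads per library on average (3 counts). It had 7, 9 and 9 counts at 4 h after 0.8 µg and 7, 6 and 7 counts after 80 µg, with means at least 2.75-fold and at least 1.91-fold higher than in control. At 12 h after 80 µg its mean of 2.56 normalized reads was under that limit. In the later groups it had 0 to 14 counts per library, and the 14 counts were those of replicate 2 of 0.8 µg at 12 h. Bcl2a1a had 0 to 11 counts per library, and Bcl2a1c was at 0 in all libraries. With the counts of the 4 copies summed, the log2 fold change at 12 h after 80 µg against control was 0.98 in place of 1.15, under the fold threshold (adjusted p = 0.0426, range 0.00097 to 0.259 over the settings tried for Bcl2a1b).

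Bcl2l11 (chr2:128126038-128162547, plus strand), which encodes Bim, rose at 4 h together with Bcl2l1 and Bcl2a1b. It was at 325, 291 and 291 in control. At 4 h it was at 2816, 2852 and 2524 after 0.8 µg and at 1707, 1449 and 1600 after 80 µg. Neither dose overlapped the controls or the other dose, and the lower dose gave the higher level, 9.03-fold over control against 5.24-fold. At 12 h it was at 497, 505 and 299 after 0.8 µg and at 348, 381 and 301 after 80 µg, and both doses overlapped the controls. At 24 h it was at 470, 392 and 481 after 0.8 µg and at 244, 216 and 200 after 80 µg, so the lower dose lay above the controls and the higher dose below them. Its log2 fold change against control was 3.16 ± 0.14 and 2.38 ± 0.14 at 4 h, 0.52 ± 0.15 and 0.18 ± 0.15 at 12 h, and 0.56 ± 0.15 and -0.46 ± 0.15 at 24 h. The 24 h values had adjusted p = 0.00076 and adjusted p = 0.00771, both under the fold threshold.

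Bbc3 (chr7:16308393-16318205, plus strand), which encodes Puma, followed Bcl2 rather than Bcl2l11. It was at 130, 199 and 106 in control. At 4 h it was at 13.1, 15.8 and 14.03 after 0.8 µg and at 12.7, 5.81 and 5.14 after 80 µg. At 12 h it was at 1.96, 9.78 and 3.52 after 0.8 µg and at 26.5, 8.80 and 2.92 after 80 µg. All 12 libraries at these times were below every control. At 24 h it was at 71.2, 61.1 and 51.8 after 80 µg, and at 9.73 and 11.2 in 2 libraries after 0.8 µg with 70.2 in the third. Its log2 fold change against control was -2.96 ± 0.66 and -3.68 ± 0.67 at 4 h, -4.14 ± 0.68 and -3.10 ± 0.66 at 12 h, and -2.02 ± 0.65 and -1.11 ± 0.64 at 24 h, the last of which missed the test (adjusted p = 0.173), although its 3 libraries were below every control. That value was called by edgeR (-1.24, adjusted p = 0.0169) and with only the groups compared in the fit (-1.22, adjusted p = 1.66e-05), in a range of 1.66e-05 to 0.320 over the settings tried. Single libraries moved the size of 3 others. The value after 0.8 µg was -4.86 at 12 h without the library at 9.78 (-4.79 unshrunken with all libraries) and -3.57 at 24 h without that at 70.2, and after 80 µg at 12 h it was -4.14 without that at 26.5. The library with 70.2 also had the highest Bcl2 (644), Mcl1 (1144), Bcl2l1 (78.5), Bcl2l11 (481) and Bcl2a1b (31.0) of its group. It had the lowest Bax (27.9) and Bak1 (68.1).

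Pmaip1, which encodes the Mcl1 ligand Noxa, was near the limit of detection, with 0 to 20 counts per library. The controls held 0, 0 and 2 counts, all at or under the limit of 3. At 4 h no library had more than 4 counts, and at 12 h and 24 h the libraries ranged from 0 to 20. It was called higher at 12 h after 80 µg alone, where the libraries held 1, 10 and 20 counts and 1 of them overlapped the controls (adjusted p = 0.045).

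Bax (chr7:45461697-45466898, minus strand) and Bak1 (chr17:27019810-27029009, minus strand) encode the effectors. Bax was called at 4 h and 12 h, and Bak1 at 12 h after 80 µg and at 24 h. Bax was at 38.1, 19.3 and 48.5 in control. At 4 h it was at 103, 59.3 and 112 after 0.8 µg and at 91.4, 118 and 109 after 80 µg. At 12 h it was at 62.7, 60.2 and 93.9 after 0.8 µg and at 103, 146 and 105 after 80 µg. Every Bax library at 4 h and 12 h was above every control, and at 24 h, with 27.9 to 37.0 and 35.1 to 41.9, both doses lay inside the control range. The log2 fold change against control was 1.37 ± 0.30 and 1.58 ± 0.30 at 4 h, 1.02 ± 0.30 and 1.73 ± 0.29 at 12 h, and -0.06 ± 0.32 and 0.11 ± 0.31 at 24 h. Bax shares 192 exonic bases with the gene Gm45808 on the same strand.

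Bak1 was at 30.9, 34.5 and 27.1 in control and did not pass the test at 4 h, with 24.8 to 42.2 after 0.8 µg and 34.7 to 43.6 after 80 µg. It was at 61.8, 46.6 and 52.8 at 12 h after 0.8 µg and at 71.3, 70.4 and 57.3 after 80 µg. At 24 h it was at 94.4, 88.6 and 68.1 after 0.8 µg and at 67.9, 102 and 106 after 80 µg. All libraries at 12 h and 24 h were above every control, and the doses overlapped at each time. The log2 fold change against control was 0.77 ± 0.28 and 1.07 ± 0.28 at 12 h and 1.40 ± 0.28 and 1.55 ± 0.27 at 24 h. Bak1 shares 614 exonic bases with Ggnbp1 on the other strand.

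To compare each dose with untreated cells, a gene was called where the adjusted p was under 0.05 and the shrunken log2 fold change was beyond 1 in size. At 4 h the same genes were called at both doses: Bcl2l1, Bcl2a1b, Bcl2a1d, Bcl2l11 and Bax were higher, and Bcl2 and Bbc3 were lower. These were 5 and 2 of the 10 genes, beside 17.3% higher and 23.4% lower of all genes tested after 0.8 µg, and 18.4% and 25.1% after 80 µg. Each of these calls at 4 h was kept when any 1 library was left out. The median log2 fold change of the 10 genes was 1.04 after 0.8 µg and 0.97 after 80 µg, or 0.71 and 0.65 with Bcl2a1d and Pmaip1 set against the limit of 3 counts in control, beside -0.13 and -0.15 over all genes.

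At 12 h, 4 genes were higher after 0.8 µg (Bcl2l1, Bcl2a1b, Bcl2a1d and Bax) and 2 were lower (Bcl2 and Bbc3), beside 17.2% and 20.5% of all genes. After 80 µg, 6 were higher, Bak1 and Pmaip1 in addition, and the same 2 were lower, beside 17.8% and 20.1%. Several of these calls rested on single libraries. After 0.8 µg, the call of Bcl2a1d was lost without replicate 2 (log2 fold change 1.17, adjusted p = 0.297, range 9.88e-08 to 0.297 over the settings tried), and that of Bax without control replicate 2 (0.71) or replicate 3 of 0.8 µg at 12 h (0.81). The Bcl2a1d call was also lost with only the groups compared in the fit (2.47, adjusted p = 0.0668). After 80 µg, the call of Bcl2a1b was lost without control replicate 1 (0.82) or 2 (0.60), or without replicate 1 (0.99) or 2 (1.09) of the dose. With only the groups compared in the fit, that call was lost too (1.17). That of Bcl2a1d was lost without control replicate 1 (1.40), 2 (1.39) or 3 (1.49), or replicate 2 (1.75) or 3 (1.78) of the dose. That of Pmaip1 was lost without control replicate 1 (1.66) or 2 (1.65), or replicate 2 (2.07) or 3 (1.28) of the dose, and that of Bak1 without control replicate 3 (0.99). Without control replicate 3, Pmaip1 was called after 0.8 µg as well (1.97). The calls that no left-out library removed were those of Bcl2, Bcl2l1 and Bbc3 at both doses, of Bcl2a1b after 0.8 µg and of Bax after 80 µg.

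At 24 h, Bcl2a1b and Bak1 were higher at both doses, Bcl2 was lower at both, and Bbc3 was lower after 0.8 µg. Of all genes, 11.5% were higher and 5.84% lower after 0.8 µg, and 12.3% and 7.91% after 80 µg. The call of Bcl2a1b after 80 µg was lost without control replicate 1 (1.10), control replicate 2 (0.88) or replicate 3 of the dose (1.12). That call was lost too with only the groups compared in the fit (1.20, adjusted p = 0.101, range 0.00034 to 0.118 over the settings tried). Pmaip1 was called after 0.8 µg without control replicate 3 (2.13), and after 80 µg without control replicate 3 (2.54) or replicate 2 of the dose (2.38). Bcl2a1d was called after 80 µg without replicate 1 of the dose (2.10). The median log2 fold change of the 10 genes, with Bcl2a1d and Pmaip1 set against that limit, was 0.63 at both doses at 12 h and 0.25 and -0.05 at 24 h, and as fitted it was 0.89, 1.11, 0.77 and 0.24. Over all genes the medians were -0.11 at both doses at 12 h and between -0.0032 and 0 at 24 h. All 6 comparisons share the 3 control libraries.

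**Figure D2:**
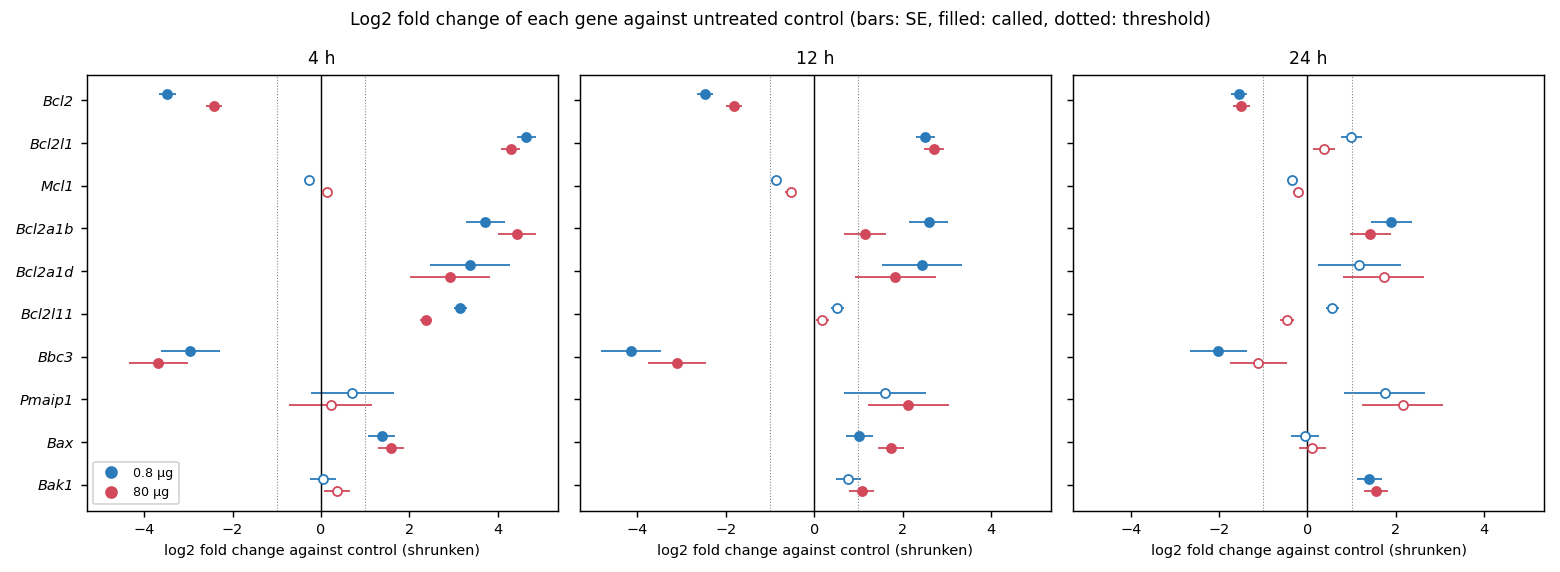
Shrunken log2 fold change against untreated control (x axis) of each gene (y axis) at 4 h, 12 h and 24 h after 0.8 µg (blue) or 80 µg (red), where bars are SE, filled points were called and dotted lines mark the fold threshold. Bcl2 lay left of 0 at all times, from -3.48 to -1.49, and Bcl2l11 lay right of 0 at 4 h at 3.16 and 2.38. The values of Bcl2a1d depend on controls at 0 counts.

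To compare the doses, 80 µg was set against 0.8 µg at each time. At 4 h, Bcl2 was higher after 80 µg, with a log2 fold change of 1.06 ± 0.20 (adjusted p = 6.09e-06) and 2.09-fold in the means. It was the only gene of the 10 called, beside 3.12% higher and 2.74% lower of all genes. Without replicate 1 (0.99) or 3 (0.92) of 0.8 µg, or replicate 1 of 80 µg (0.93), it fell just under the fold threshold. Bcl2l11 had a log2 fold change of -0.78 ± 0.14 (adjusted p = 3.37e-07), with no overlap but under the fold threshold, and the log2 fold change of Mcl1 was 0.41 ± 0.12 (adjusted p = 0.00648). Bcl2l1, at -0.35 ± 0.16, did not pass (adjusted p = 0.168). Bcl2a1b, at 0.72, did not pass either, and its doses overlapped. Bcl2a1d and Pmaip1 had too few counts for an adjusted p at 4 h and 24 h, and Bcl2a1d at 12 h too.

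At 12 h the gene called was Bcl2a1b, lower after 80 µg with a log2 fold change of -1.44 ± 0.38 (adjusted p = 0.00565), 2.83-fold in the means. Of all genes, 1.83% were higher and 0.96% lower. Without replicate 3 of 80 µg the call was lost (-1.19, adjusted p = 0.0633, range 0.00407 to 0.0633 over the settings tried). Bcl2 had a log2 fold change of 0.65 ± 0.19 at 12 h (adjusted p = 0.0158), with no overlap between the doses. Mcl1 and Bax did not overlap between the doses at 12 h either, but did not pass, at 0.33 ± 0.12 (adjusted p = 0.0769) and 0.71 ± 0.27 (adjusted p = 0.112). At 24 h the gene called was Bcl2l11, lower after 80 µg with a log2 fold change of -1.02 ± 0.15 (adjusted p = 1.69e-09), 2.03-fold in the means, beside 0.89% higher and 0.673% lower of all genes. Without replicate 1 (-0.99) or 3 (-0.97) of 0.8 µg, or replicate 3 of 80 µg (-0.95), it fell just under the fold threshold with adjusted p of 3.50e-06 or less. The doses overlapped for Bcl2 at 24 h, with a log2 fold change of 0.06 ± 0.19 (adjusted p = 0.927). Bcl2l1, at -0.61 ± 0.21, did not pass either (adjusted p = 0.0645), although the 3 libraries of the higher dose were all below those of the lower dose. Bbc3 had a log2 fold change of 0.90 ± 0.65 at 24 h (adjusted p = 0.547), and without the library at 70.2, replicate 3 of 0.8 µg, it was called at 2.37 (adjusted p = 0.000716, range 0.000716 to 0.747 over the settings tried).

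**Figure D3:**
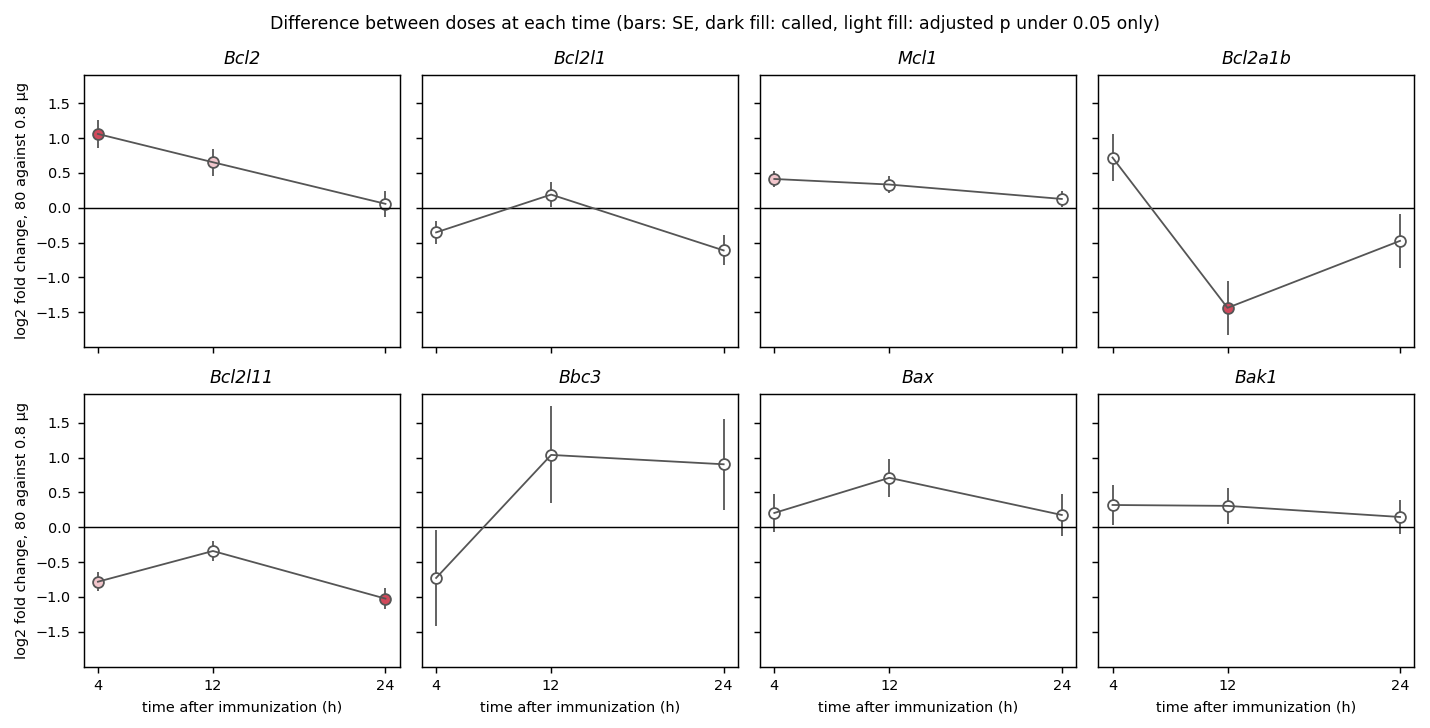
Shrunken log2 fold change of 80 µg against 0.8 µg (y axis) by time after immunization in h (x axis) for the 8 genes with enough counts, where bars are SE, dark points were called and light points had an adjusted p under 0.05 only. The difference for Bcl2 went from 1.06 at 4 h to 0.06 at 24 h, that of Bcl2a1b from 0.72 to -1.44 and -0.48, and that of Bcl2l11 stayed below 0.

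Whether the dose effect changed with time was tested by the interaction of dose and time in the 18 immunized libraries (DESeq2 likelihood ratio test). It passed for Bcl2a1b (adjusted p = 0.000338), Bcl2 (adjusted p = 0.0274) and Bcl2l11 (adjusted p = 0.049), 3 of the 8 genes tested, beside 10.4% of all genes. Bcl2l1 did not pass (adjusted p = 0.0734), nor did Mcl1 (0.557), Bbc3 (0.316), Bax (0.583) or Bak1 (0.951). Bcl2a1b passed in every setting tried, with an adjusted p of 0.0054 or less. Summing the counts of the Bcl2a1 copies was not among the settings of this test. For Bcl2 the adjusted p ranged from 0.00551 to 0.130 and rose above 0.05 without replicate 1 or 3 of either dose at 4 h, replicate 3 of 0.8 µg at 24 h, or replicate 1 or 3 of 80 µg at 24 h. For Bcl2l11 it ranged from 0.0165 to 0.209 and stayed under 0.05 without replicate 1 or 2 of 0.8 µg at 12 h, replicate 3 of 80 µg at 12 h, replicate 2 of 0.8 µg at 24 h or replicate 1 of 80 µg at 24 h, and the call was lost without any other 1 library. Bcl2l1 came under 0.05 without replicate 3 of 0.8 µg at 12 h, replicate 1 or 3 of 80 µg at 12 h or replicate 2 of 80 µg at 24 h, and with total count scaling (0.0283), where Bcl2l11 was lost (0.0869), and the adjusted p of Bcl2l1 ranged from 0.0144 to 0.413. Bbc3 came under 0.05 without replicate 3 of 0.8 µg at 24 h (adjusted p = 0.0134, range 0.0134 to 0.551 over the settings tried). The number of genes went to 1 without replicate 1 or 3 of 0.8 µg at 4 h, replicate 1 or 3 of 80 µg at 4 h, or replicate 3 of 80 µg at 24 h.

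The steps in time were compared within each dose. From 4 h to 12 h after 0.8 µg, Bcl2l1 (-2.13 ± 0.17), Bcl2l11 (-2.63 ± 0.14) and Bcl2a1b (-1.13 ± 0.35) fell and Bcl2 rose (1.01 ± 0.20), beside 12.6% higher and 7.98% lower of all genes. The call of Bcl2 was lost without replicate 1 (0.94) or 3 (0.87) of 4 h or replicate 2 (0.99) of 12 h, and that of Bcl2a1b without replicate 2 of 4 h (-0.93) or replicate 3 of 12 h (-0.97). Without replicate 2 of 12 h, Bbc3 was called lower (-1.77). After 80 µg, Bcl2l1 (-1.59 ± 0.17), Bcl2l11 (-2.19 ± 0.14) and Bcl2a1b (-3.29 ± 0.37) fell and were the 3 genes called, beside 15.7% higher and 9.1% lower of all genes. Without replicate 1 of 12 h, Pmaip1 was called higher (2.27). Bcl2a1b fell 10.7-fold in the means after 80 µg and 2.26-fold after 0.8 µg.

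From 12 h to 24 h after 0.8 µg, Bcl2l1 (-1.53 ± 0.19) and Bax (-1.08 ± 0.30) fell and Bbc3 rose (2.12 ± 0.69), beside 17.1% higher and 9.48% lower of all genes. The rise of Bbc3 rested on replicate 3 of 24 h, without which it was 0.88 (adjusted p = 0.259, range 0.000146 to 0.259 over the settings tried), and it was 2.75 without replicate 2 of 12 h. The Bax call was lost without replicate 3 of 12 h (-0.87) or of 24 h (-0.97), and Bcl2 was called higher without replicate 1 (1.08) or 2 (1.02) of 24 h. After 80 µg, Bcl2l1 (-2.33 ± 0.20) and Bax (-1.62 ± 0.28) fell and Bbc3 rose (1.99 ± 0.66), beside 16.7% higher and 10.5% lower of all genes. These 3 calls were kept with any 1 library left out, with the rise of Bbc3 at 2.98 without replicate 1 of 12 h, and the Bbc3 libraries did not overlap between the times.

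Survival and death genes were set beside each other by log2 ratios of normalized counts, given as the difference from the mean of the controls. Of these ratios, that of Bcl2l1 to Bcl2 compares survival genes only. The ratio of Bcl2l1 to Bcl2 was 8.25 ± 0.34 (SD, n = 3) above control at 4 h after 0.8 µg and 6.82 ± 0.42 after 80 µg. It was 5.06 ± 0.18 and 4.55 ± 0.62 at 12 h and 2.63 ± 0.33 and 1.89 ± 0.10 at 24 h. Every immunized library was above the controls, which ranged from -0.08 to 0.12. The ratio of Bcl2l11 to Bcl2 was 6.70 ± 0.27 and 4.84 ± 0.19 above control at 4 h and 2.16 ± 0.40 and 1.05 ± 0.30 at 24 h, with no overlap between doses at either time. In contrast, the ratio of Bcl2l11 to Bcl2l1 was below control in every immunized group, by -1.55 ± 0.07 and -1.98 ± 0.23 at 4 h, by -2.09 ± 0.63 and -2.54 ± 0.33 at 12 h and by -0.46 ± 0.08 and -0.84 ± 0.38 at 24 h. Bcl2l11 thus rose by a smaller fold over control than Bcl2l1 at 4 h, while Bcl2 fell. In normalized counts, Bcl2l11 stayed above Bcl2l1 at 4 h. The means were 2731 and 891 after 0.8 µg, and 1585 and 696 after 80 µg, beside 302 and 33.8 in control. The ratio of Bcl2l11 to Mcl1 was 3.45 ± 0.04 and 2.25 ± 0.21 above control at 4 h and 0.92 ± 0.23 and -0.24 ± 0.23 at 24 h.

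**Figure D4:**
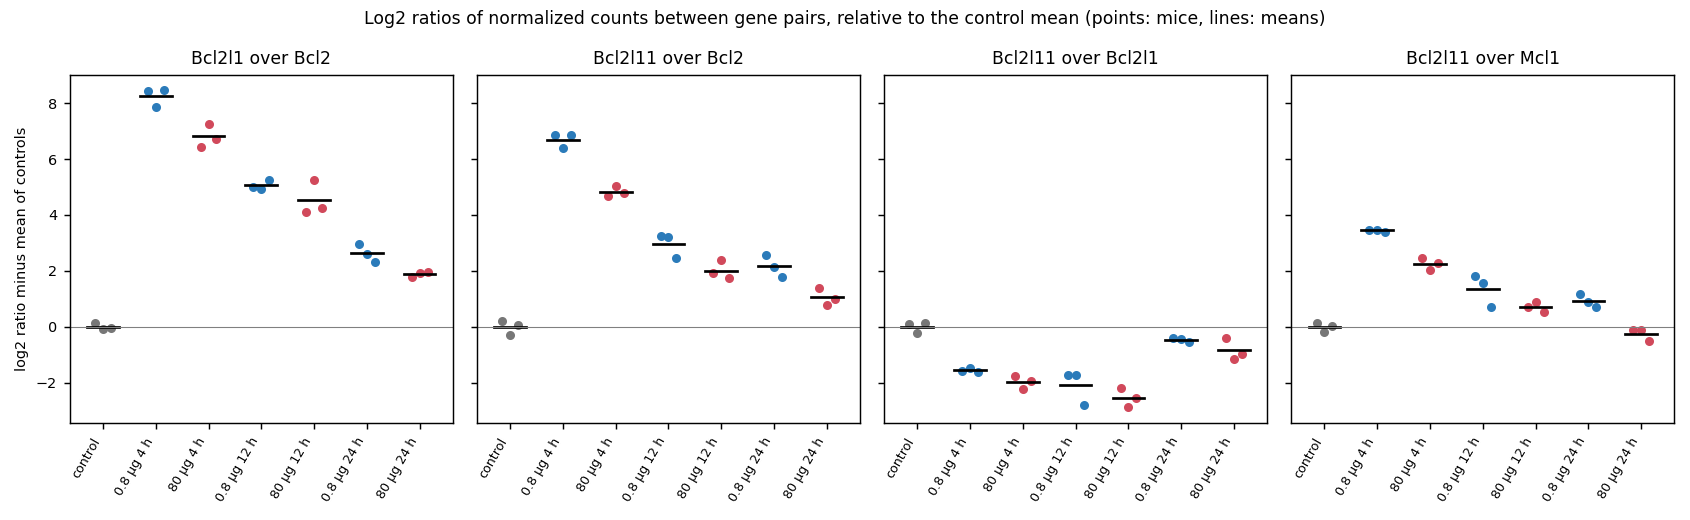
Log2 ratio of normalized counts of 2 genes minus the mean of the controls (y axis) in the 7 groups (x axis), where points are libraries (grey control, blue 0.8 µg, red 80 µg) and lines means of 3. The ratio of Bcl2l1 to Bcl2 peaked at 8.25 at 4 h after 0.8 µg, and that of Bcl2l11 to Bcl2l1 was lowest at -2.54 at 12 h after 80 µg.

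Other genes of the same pathways were taken from fixed lists. Of 16 further Bcl2 family genes, 12 passed the filter (Bcl2a1c, Bcl2l10, Bok and Hrk did not). At 4 h, 1 of 10 tested was higher and 3 were lower after 0.8 µg, and 1 was higher and 2 were lower after 80 µg, beside 17.3% higher and 23.4% lower of all genes after 0.8 µg and 18.4% and 25.1% after 80 µg. The median log2 fold change was -0.24 and -0.67, beside -0.13 and -0.15 over all genes. Bid, which links death receptors to the mitochondria, was 3.60-fold above control at 4 h after 80 µg (1.82 ± 0.31). Its means at 4 h were 95.8 after 0.8 µg and 104 after 80 µg. At 12 h it was lower after 80 µg than after 0.8 µg (-1.07 ± 0.29, adjusted p = 0.00771). The latter call was lost without replicate 1 (-0.98) or 2 (-1.03) of 0.8 µg or replicate 2 (-1.01) of 80 µg. Bnip3l, a mitophagy receptor, was 14.7-fold lower than control at 4 h after 80 µg. Its means at 4 h were 28.0 after 0.8 µg and 13.7 after 80 µg, beside 202 in control. Bad, a death gene of the family whose protein is regulated by phosphorylation, had a mean of 37.7 normalized counts in control. It had a mean of 2.82 at 4 h after 80 µg, where 3 counts per library came to 2.98, and of 4.65 after 0.8 µg.

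Of the 18 genes of the apoptosome, the caspases and their inhibitors, 3 were higher and 5 lower at 4 h after 0.8 µg, beside 17.3% and 23.4% of all genes. All 5 genes called at 24 h were higher, at either dose, beside 11.5% higher and 5.84% lower of all genes after 0.8 µg and 12.3% and 7.91% after 80 µg. Birc5 (survivin), a gene of dividing cells, was at 1205 ± 61.8 at 24 h after 80 µg, 86.8-fold over control (log2 fold change 6.34, or 6.97 without control replicate 1). After 0.8 µg it was at 699 ± 172 at 24 h, beside 13.9 in control. Cycs, which encodes cytochrome c, was 6.88-fold over control at 4 h after 0.8 µg. Its means at 4 h were 215 after 0.8 µg and 195 after 80 µg. Apaf1, the scaffold that cytochrome c binds, was 4.55-fold lower than control at 4 h after 0.8 µg and 4.38-fold higher after 80 µg than after 0.8 µg (adjusted p = 7.24e-06). Casp6 was 5.45-fold higher after 80 µg than after 0.8 µg at 4 h, and Birc5 5.37-fold higher at 12 h. Their log2 fold changes were 2.41 and 2.31, or 1.47 and 1.33 with only the groups compared in the fit. Casp6 and Apaf1 were the genes of the list called between doses at 4 h, both higher after 80 µg beside 3.12% higher of all genes, and Birc5 the gene called at 12 h, higher beside 1.83%.

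In the death receptor pathway, 3 of 12 were higher and 5 lower at 4 h after 0.8 µg, and 4 were higher and 4 lower after 80 µg. Of all genes, 17.3% were higher and 23.4% lower after 0.8 µg, and 18.4% and 25.1% after 80 µg. Fasl, the ligand of the death receptor Fas, was 21.5-fold over control at 4 h after 0.8 µg and 3.41-fold lower after 80 µg than after 0.8 µg (-1.75 ± 0.27, adjusted p = 7.18e-09). Fas itself was 3.93-fold over control at 4 h after 80 µg, with means of 133 after 0.8 µg and 142 after 80 µg. Tnfsf10, which encodes the ligand TRAIL, had a mean of 51.4 normalized counts in control and of 3.64 at 4 h after 0.8 µg, where 3 counts per library came to 3.41. After 80 µg its mean at 4 h was 7.08. The TNF receptor Tnfrsf1a was 10.7-fold lower at 4 h after 80 µg. Fasl and Tnfrsf1a were the 2 genes of the list called between doses at 4 h, both lower after 80 µg, beside 2.74% lower of all genes.

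In the p53 pathway, 3 of 15 were higher and 4 lower at 4 h at either dose, beside 17.3% and 23.4% of all genes after 0.8 µg and 18.4% and 25.1% after 80 µg. At 12 h after 80 µg, 5 were higher and 3 lower, beside 17.8% and 20.1%. Trp53inp1, a p53 target, was 56.8-fold lower than control at 12 h after 0.8 µg and the stress gene Sesn1 22.7-fold lower at 12 h after 80 µg. At 12 h the means after 0.8 µg and 80 µg were 9.20 and 29.6 for Trp53inp1, and 16.1 and 12.0 for Sesn1. Aen, a p53-induced nuclease, was 8.82-fold higher than control at 4 h after 0.8 µg, with means of 142 after 0.8 µg and 103 after 80 µg. Cdkn1a, the cell cycle inhibitor p21, was at 79.4 ± 54.3 at 12 h after 80 µg and at 16.9 after 0.8 µg (2.13 ± 0.47, adjusted p = 0.000379, or 1.498 and 0.0404 without replicate 1 of 80 µg and 1.19 with only the groups compared in the fit), with controls at or under the limit of 3 counts. Among 10 genes of mitochondrial channels and Mcl1 turnover, 5 were called at 12 h at each dose, all higher, beside 17.2% higher of all genes after 0.8 µg and 17.8% after 80 µg. The median over the list was 1.04 after 0.8 µg, beside -0.11 over all genes. Vdac2, an anchor of Bak1 in the outer membrane, was 3.97-fold over control at 12 h after 0.8 µg, Vdac1 5.56-fold, and Dynll1 2.85-fold after 80 µg. At 12 h the means after 0.8 µg and 80 µg were 903 and 807 for Vdac2. They were 771 and 645 for Vdac1, and 811 and 846 for Dynll1.

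**Figure D5:**
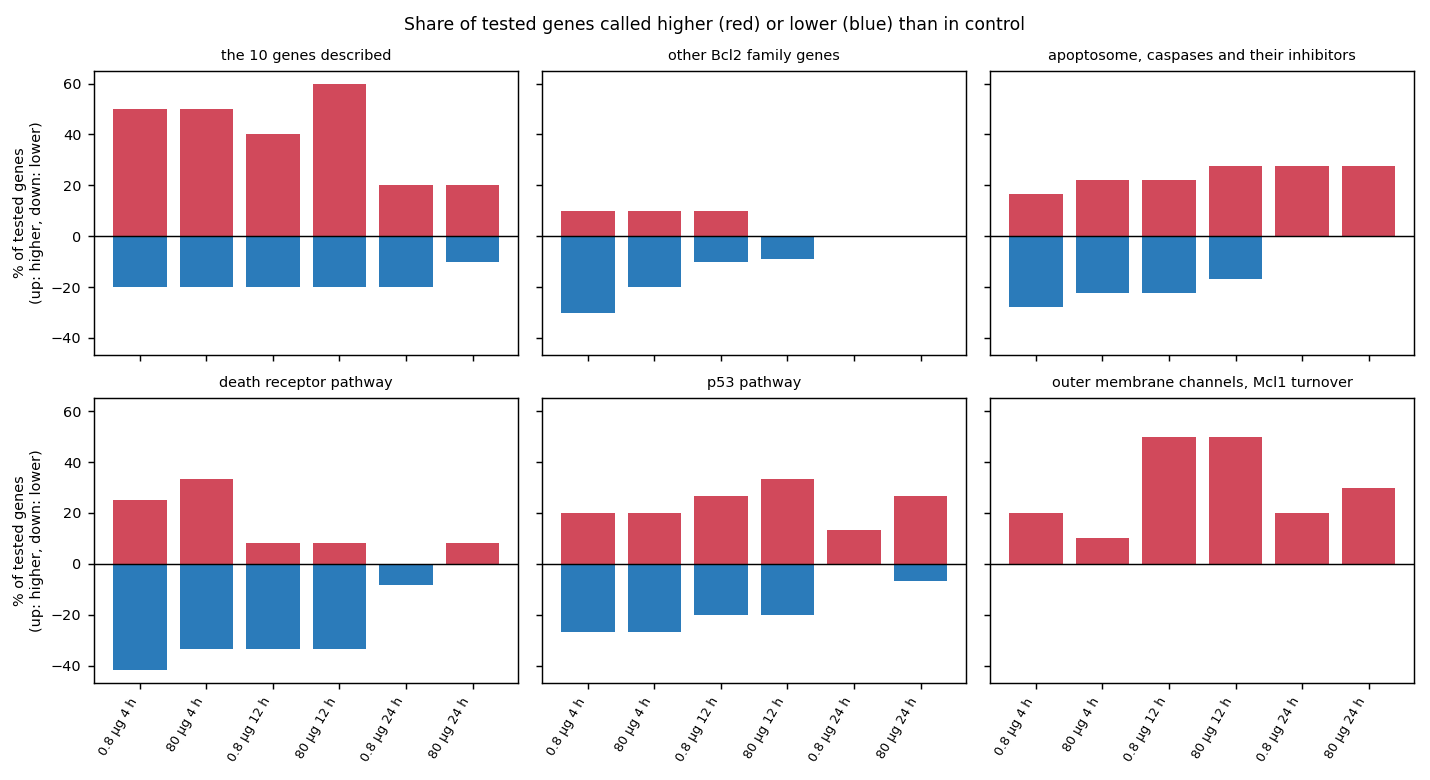
Share of tested genes called against control (y axis, %, red upward higher, blue downward lower) in the 6 immunized groups (x axis) for the 10 genes described and the 5 pathway lists. Of the 10 genes, 5 were higher and 2 lower at 4 h at either dose. Of all genes at 4 h, 17.3% were higher and 23.4% lower after 0.8 µg, and 18.4% and 25.1% after 80 µg. At 24 h, 2 of the 10 were higher at either dose, and 2 were lower after 0.8 µg and 1 after 80 µg. Of all genes at 24 h, 11.5% were higher and 5.84% lower after 0.8 µg, and 12.3% and 7.91% after 80 µg. In the list of mitochondrial channels 5 were higher at 12 h, beside 17.2% and 17.8% of all genes.

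The patterns of the 10 genes were also compared over the 21 libraries by Pearson's r of the deposited rlog values. These are descriptions: the points share libraries and groups. Bcl2l1 and Bcl2l11 had r = 0.87, Bcl2l11 and Bcl2a1b 0.83, and Bcl2l1 and Bax 0.81. Bcl2 ran with Bbc3 (0.76) and against Bcl2l1 (-0.84). Among 4697 genes with a mean of 100 or more normalized counts, the most alike to Bcl2 were Cyth1 (0.95) and Il7r, the interleukin-7 receptor chain (0.95). The nearest to Bcl2l1 were Ankrd49 (0.98) and Zap70 (0.98), a kinase of TCR signaling, and to Bcl2l11 they were Relb, an NF-kB subunit (0.96), and Dnmt3a, a DNA methyltransferase (0.96). Gramd1b and Cdk5r1 were nearest to Bcl2a1b (0.91 for both), and Rapgef6 and Zswim8 to Mcl1 (0.90 for both). For Bbc3 they were Znrf2 (0.92) and Ptpra (0.91). For Bax they were Psmd4, a proteasome subunit (0.94), and Rpl36al (0.92), and for Bak1 Rrm1, a ribonucleotide reductase subunit (0.94), and Lmnb1, a nuclear lamin (0.94). The low-count genes had weaker neighbors, Elovl1 and Rnf4 for Bcl2a1d (0.83 for both) and Atl3 (0.71) and Cdkn2aipnl (0.70) for Pmaip1.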

How the data were processed

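RNA of sorted CD4+ T cells was made into QuantSeq 3′ libraries, which read the 3′ ends of transcripts. The authors aligned reads with STAR 2.5.2a to GRCm38 (mm10) and counted them with HTSeq. The deposited counts are raw whole numbers per gene, and the deposited log2 values are DESeq2's regularized log (rlog) of 15249 genes. The annotation release and the strand setting were not given in the sources used here. The 10 genes were matched by the name that the rlog table pairs with each ID, and list genes that this table lacks by a table of gene symbols.

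For the tests, DESeq2 1.42.0 (R 4.3.3) was run on the deposited counts, as 1 model of all 21 libraries with the group as the term, on the 15300 genes with at least 10 counts in all. A gene was called at an adjusted p under 0.05 and a log2 fold change beyond 1 in size. p-values are Wald tests with Benjamini-Hochberg adjustment, and fold changes were shrunken with the normal prior. The interaction was a likelihood ratio test on 9958 genes with an adjusted p. Bounds used 3 counts per library. Limits from 3 counts cover counting error only. The members, the gene lists and the tests were chosen with earlier results of these data known. Named pathway genes were, per list, up to 3 in each direction called between doses at any time and up to 3 against control, with a mean of at least 20 normalized counts. Each was named at the comparison with its largest change, so a dose named against control is not the only dose at which it changed. Not every gene so named is reported here. The 2 nearest genes per member were named by Pearson's r. edgeR 4.0.16, other scalings, no filter, a fit of only the groups compared, unshrunken fold changes, a replicate block, thinned counts and leaving out each library were the alternatives. On simulated counts of 15300 genes for 80 µg against 0.8 µg at 4 h, with 200 changed genes, the test recovered 80% at a log2 change of 1.5 and 95% at 3, with 6 false calls. The interaction test recovered 62% and 92%, with 11 false calls. The changed genes were drawn above a minimum expected count in every library, so these rates do not cover Bcl2a1d or Pmaip1. GENCODE vM21 gave locations, and RefSeq promoter windows gave sequences. Protein sequences were not used here, and no sequence of Pmaip1 is shown.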

Additional observations from a re-analysis of the deposited data

Results flagged for a closer look

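The difference between 80 µg and 0.8 µg passed the interaction test of dose and time for 3 genes, and 2 of these calls depended on the processing or on single libraries. For Bcl2a1b, the log2 fold change between doses went from 0.72 at 4 h to -1.44 at 12 h and -0.48 at 24 h, a range of 2.157 (adjusted p = 0.000338). Only the 12 h difference was called by itself, and the doses overlapped at 4 h and 24 h. For Bcl2 it went from 1.06 at 4 h through 0.65 at 12 h to 0.06 at 24 h, a range of 1.002 (adjusted p = 0.0274). This call was lost with the replicate block (0.0548) and without any 1 of 7 of the 18 libraries, over a range of 0.00551 to 0.130. For Bcl2l11 it was -0.78, -0.34 and -1.02, a range of 0.6834 (adjusted p = 0.049), and it kept 1 sign. That call was lost with edgeR (0.0545), total count scaling (0.0869), no filter on low counts (0.0535) and thinned counts (0.209), and without any 1 of 13 of the 18 libraries, over a range of 0.0165 to 0.209.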

How the results depend on the processing

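Of the 10 genes, the number called against control at 4 h was 7 at either dose in each setting tried except 8 for 0.8 µg with the adjusted p alone. The number called against control went from 8 to 5 at 12 h after 80 µg with counts thinned to the smallest library, from 4 to 7 at 24 h after 0.8 µg with the adjusted p alone, and from 3 to 6 at 24 h after 80 µg with edgeR. Between doses, it went from 1 to 3 at 4 h and from 1 to 2 at 12 h with the adjusted p alone, and from 1 to 0 at 12 h and at 24 h with only the groups compared in the fit. With thinned counts it was also 0 at 24 h, where Bcl2l11 had a log2 fold change of -0.98. With the adjusted p alone, the number called in time went from 3 to 6 after 0.8 µg from 12 h to 24 h, from 3 to 6 after 80 µg from 4 h to 12 h, and from 3 to 5 after 80 µg from 12 h to 24 h. Leaving out 1 library gave 5 to 7 genes called against control at 12 h after 80 µg, 0 to 1 between doses at each time, 1 to 4 after 0.8 µg from 12 h to 24 h and 1 to 4 with an interaction of dose and time. No direction of a called gene reversed. Causes were not tested.

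Over all comparisons, samples with the same replicate number did not clearly deviate together. Of 39 pairs, 10 had r over 0.1 (range -0.18 to 0.21), and 9 of 21 samples correlated best with their own number. Within a dose, the pairs of 12 h against 4 h were all positive (0.0051 to 0.19). Those of 24 h against 12 h went either way (-0.14 to 0.14). The numbers were not read as pairs. With the replicate block, the number called went from 3 to 4 at 24 h after 80 µg against control (Pmaip1, 2.23, adjusted p = 0.0271), that with an interaction went from 3 to 2 (Bcl2, adjusted p = 0.0548), and the other counts were the same. Scaling by total counts shifted the median of all genes by -0.24 to 0.15 on the log2 scale, and TMM by at most 0.035. Depth limits Bcl2a1d and Pmaip1, with 84 and 113 counts in all.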
